A study of Mus musculus with 2 samples.

Results

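The 67 genes described here encode the phase II conjugation enzymes of the mouse: UDP-glucuronosyltransferases (Ugt), glutathione S-transferases (Gst and the membrane-bound Mgst) and cytosolic sulfotransferases (Sult). They were chosen by name, as all protein-coding genes whose symbols start with Ugt1, Ugt2, Ugt3, Gsta, Gstm, Gstp, Gstt, Gsto, Gstk, Gstz, Mgst or Sult, out of 21670 coding genes annotated on the 19 autosomes and chromosome X. Accessibility at these genes was read from 2 DNase-seq libraries of kidney, numbered replicates 1 and 2, from female B6CASTF1/J mice of 8 to 10 months. DNase-seq maps the DNA that the enzyme DNase I can reach: a peak marks open chromatin, and a footprint marks a short stretch within it that was cut less. B6CASTF1/J animals are the offspring of C57BL/6J and CAST/EiJ parents, so each carries a chromosome set that differs from the reference genome. The labels name no treatment, and no other tissue or condition was part of the series. The tissue samples are separate but come under a single donor entry, and the difference between replicates may therefore be technical.

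Phase II enzymes attach a polar group to drugs, steroids, bilirubin, bile acids and reactive products of metabolism, which can then leave in urine or bile. Ugt enzymes transfer glucuronic acid from UDP-glucuronate, Gst enzymes transfer glutathione, and Sult enzymes transfer sulfate from the donor PAPS. Liver is the best known site of these reactions. In the kidney they take place mainly in the proximal tubule, which also takes up glutathione conjugates and turns them into mercapturates.

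Promoters count as open here if a region with peaks in both libraries met the 500 bases on either side of a protein-coding transcription start site (TSS). Glutathione transferase promoters were mostly open, both Ugt3 promoters were open, and those of the Ugt2a, Sult2a and Sult3 to Sult6 genes were all without a shared peak. In all, 34 of the 67 promoters were open (50.7%), against a background of 63.0% of all protein-coding genes. Of the Gst genes other than Mgst, 18 of 22 were open (81.8%), with 2 of 3 Mgst genes, 9 of 21 Ugt genes (42.9%) and 5 of 21 Sult genes (23.8%). By group the open counts were 6 of 7 Gstm, 3 of 4 Gsta, 2 of 3 Gstp, 3 of 4 Gstt and 2 of 2 Gsto genes, with Gstk1 and Gstz1 open as well. They were 4 of 9 Ugt1, 3 of 10 Ugt2 and 2 of 2 Ugt3 genes. In the stronger 50% of peaks 2 Ugt1, 1 Ugt2 and 2 Ugt3 genes were open, where 56.5% of all protein-coding genes were. With 1 group and no second condition, no test across samples was possible, and these counts describe the 2 libraries.

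**Figure D1:**
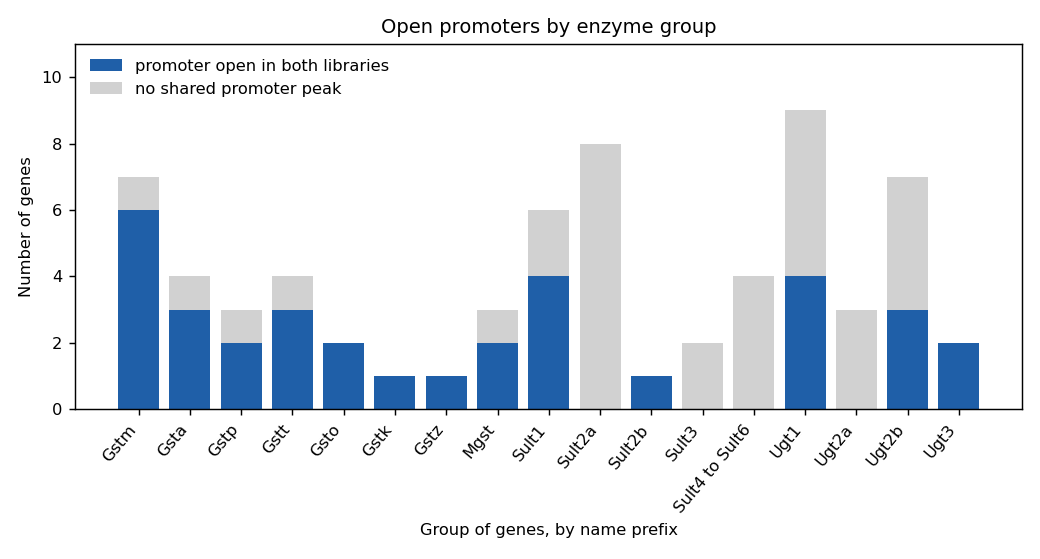
Number of genes with an open promoter (blue) and without a shared promoter peak (grey) in each enzyme group, by name prefix. The Sult2a bar is wholly grey (0 of 8), while 6 of 7 Gstm genes are blue.

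The height of a peak is the signal that the authors gave it. The values are whole multiples of a step, and whether this is a scaling to depth depends on a step being 1 tag. Open members were lower than open promoters in general, with a median of 2.84 against 4.78 for all open protein-coding genes. Of the 34 open members, 10 lay above that general median: Gstm1, Gstm7, Gstt2, Mgst3, Gstz1, Gstm4, Gsto2, Sult1c2, Gstt3 and Gstk1. No Ugt gene was among them. The median signal was 4.11 over the open Gst genes, 2.95 over the open Sult genes and 0.963 over the open Ugt genes. In bulk tissue a low signal from fewer cells of a type cannot be told apart from a low signal in every cell.

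**Figure D2:**
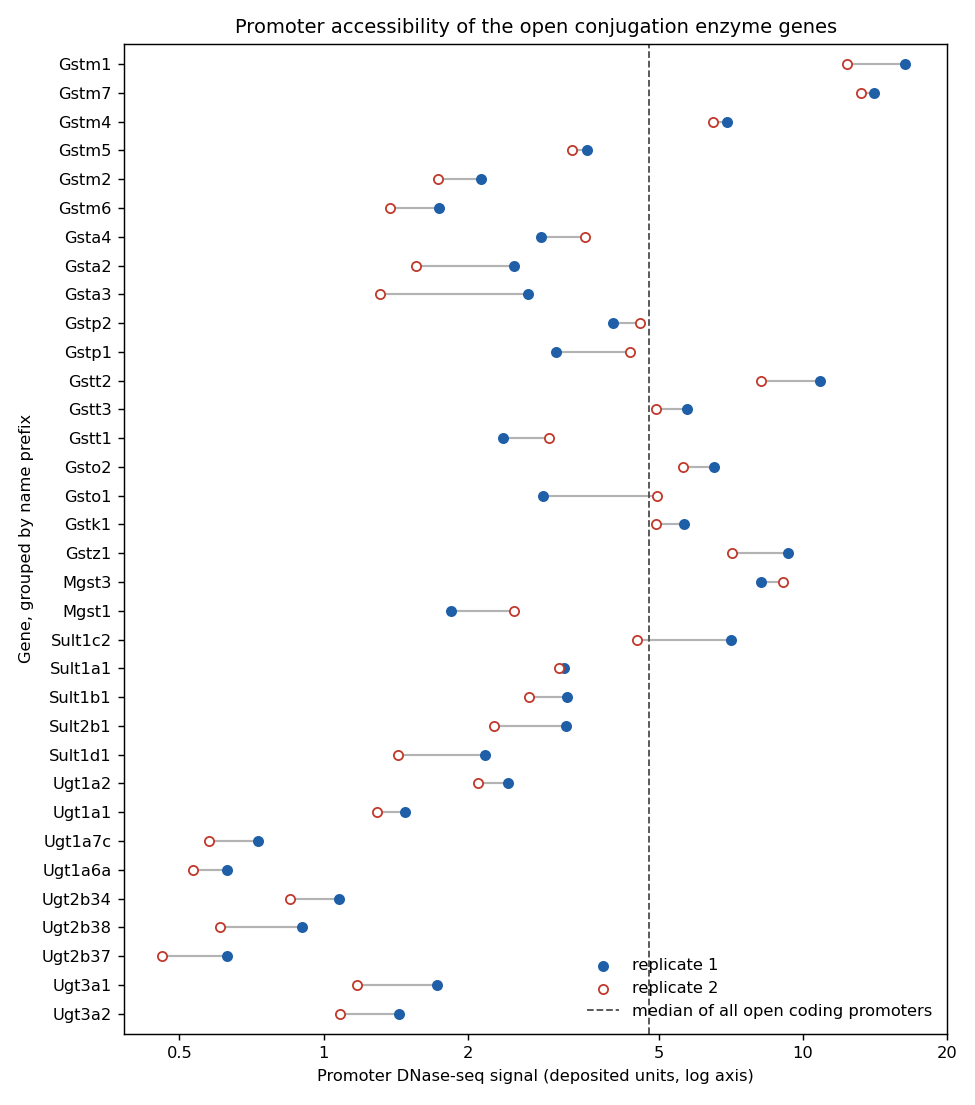
Promoter signal of the 34 open genes in replicate 1 (filled) and replicate 2 (open circles) on a log axis, ordered by group and mean; the dashed line is the median of all open protein-coding promoters (4.78). Gstm1 and Gstm7 stand above 12 in both libraries, and all Ugt genes lie left of the line.

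The Gstm genes encode the mu class of cytosolic glutathione transferases and lie together on chromosome 3. Gstm1, a major mu class enzyme, had the strongest promoter of all 67 genes, at chr3:108017821-108018160, with a signal of 16.3 in replicate 1 and 12.4 in replicate 2 (14.3 ± 2.77, SD, n = 2). It exceeded 92.7% of open protein-coding promoters. Gstm7 followed at chr3:107931721-107931980 with 14.1 and 13.2 (13.6 ± 0.577). When the peaks of the libraries had to overlap by 50% of both, this region was lost and the Gstm7 signal was 1.25. The means of Gstm1 and Gstm7 differed by less than the spread between the Gstm1 libraries. Gstm4 had 6.94 and 6.495 (6.72 ± 0.313), below both in each library. Gstm5 reached 3.54 and 3.30, Gstm2 reached 2.12 and 1.73, and Gstm6 reached 1.74 and 1.38. Gstm3 had a weak peak of 0.438 in replicate 1 and none in replicate 2. The 7 genes therefore spanned the range from the top of the set to no shared peak within 149.1 kb.

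At Gstm1, a footprint found in both libraries covered 2 copies of CCAAT, the box bound by the factor NF-Y, and at Gstm5 a pair of shared footprints touched the ends of a match to the antioxidant response element (ARE, searched as TGACNNNGC), the site of NRF2 with small MAF proteins. The stretches below are from the GRCm38.p6 genome, 5′ to 3′ on the gene's strand, with the matches in capitals. Both lie in annotated exons of a transcript. The Gstm1 stretch is chr3:108017892-108017921 on the minus strand and the Gstm5 stretch is chr3:107895791-107895820 on the plus strand.
Gstm1: tgcctaATTGGgATTGGtgcagggttggga
Gstm5: ctgcgcctgcgcaccgcccacTGACCACGC

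The alpha class (Gsta) enzymes act on lipid peroxidation products and steroids. All 3 open promoters were below the median of all open protein-coding genes (4.78). Gsta4, which encodes an enzyme with high activity for 4-hydroxynonenal, had 2.84 and 3.51 (3.17 ± 0.477) in a region at an internal TSS, centred 9196 bases from the annotated gene start. Gsta2 had 2.50 and 1.56 (2.03 ± 0.663), also at an internal TSS, with the region's centre 8598 bases from the gene start. Gsta3 had 2.67 and 1.31 (1.99 ± 0.963). It was the only open member whose libraries differed by more than 2-fold, with a log2 ratio of replicate 2 to replicate 1 of −1.03. Among all open protein-coding genes 2.87% differed that much. Gsta1 had no promoter peak in either library.

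The pi class genes Gstp1 and Gstp2 lie side by side on chromosome 19 and encode enzymes abundant in many epithelia. Their signals were close to each other, at 3.05 and 4.35 for Gstp1 (3.70 ± 0.920) and 4.01 and 4.58 for Gstp2 (4.29 ± 0.401). The ranges overlapped. The third gene, Gstp3, had no peak. Gstp1 carried a match to AP-1 (TGANTCA), the site of FOS and JUN, across its TSS and touched by a shared footprint. The match lies within the stretch chr19:4037968-4037997 on the minus strand. Gstp1 was the only one of the 11 open members with an AP-1 match where a footprint touched the match. Gstp2 carried an ARE match 249 to 241 bases before its TSS, with no shared footprint on it. This match lies within the stretch chr19:4046218-4046317 on the minus strand.
Gstp1: ctccaacgtgtTGAGTCAgcatccggggcg
Gstp2: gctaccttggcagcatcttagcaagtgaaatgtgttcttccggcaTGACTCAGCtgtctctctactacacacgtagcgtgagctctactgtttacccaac

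Among the theta class, Gstt2 led with 10.9 and 8.17 (9.53 ± 1.92). Gstt3 had 5.73 and 4.93 (5.33 ± 0.567), in a region that also lies in the promoter window of Gm20441, so the signal may not be that of Gstt3 alone. Gstt1, whose product metabolises small halogenated compounds, had 2.36 and 2.95 (2.66 ± 0.415), and Gstt4 had no peak. The 3 open theta genes did not overlap in either library.

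The remaining cytosolic and organelle enzymes were open throughout. Gstz1, the zeta class enzyme that isomerises maleylacetoacetate in tyrosine breakdown, had 9.29 and 7.12 (8.21 ± 1.54) in a region shared with the promoter window of Pomt2. Counted over all 4 of its promoter regions, Gstz1 had 12 shared footprints. Gsto2 had 6.52 and 5.63 (6.08 ± 0.633) and its neighbour Gsto1 had 2.87 and 4.97 (3.92 ± 1.49). Both are omega class enzymes, which reduce dehydroascorbate and methylated arsenic. Gstk1, the kappa class enzyme of mitochondria and peroxisomes, had 5.65 and 4.94 (5.30 ± 0.497).

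The Mgst genes encode membrane-bound transferases and peroxidases. Mgst3, an enzyme of leukotriene and peroxide metabolism, had 8.16 and 9.09 (8.62 ± 0.656). Mgst1, the abundant enzyme of the endoplasmic reticulum and outer mitochondrial membrane, had 1.84 and 2.50 (2.17 ± 0.465), below Mgst3 in both libraries. Mgst2 had no promoter peak.

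Ugt1a genes share their later exons, and each has its own first exon and promoter along 164.6 kb of chromosome 1. The open promoters were the pair at the downstream end of this row and 2 weaker ones further up. Ugt1a2 had 2.42 and 2.10 (2.26 ± 0.227) and Ugt1a1, which encodes the enzyme that conjugates bilirubin, had 1.48 and 1.29 (1.39 ± 0.133). Ugt1a7c had 0.728 and 0.575 (0.651 ± 0.108), and Ugt1a6a, whose product conjugates small planar phenols, had 0.628 and 0.534 (0.581 ± 0.0670). Ugt1a2 and Ugt1a1 were above both of the latter in each library. Ugt1a5, Ugt1a6b, Ugt1a8, Ugt1a9 and Ugt1a10 were not open, although Ugt1a10 had separate peaks of 0.322 and 0.308 in the libraries that did not overlap.

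Ugt2 enzymes conjugate steroids, bile acids and many drugs. Their open promoters were weak: Ugt2b34 had 1.07 and 0.850 (0.963 ± 0.159), Ugt2b38 had 0.901 and 0.609 (0.755 ± 0.207) and Ugt2b37 had 0.628 and 0.459 (0.543 ± 0.120). Ugt2a1, Ugt2a2, Ugt2a3, Ugt2b1, Ugt2b35 and Ugt2b36 had no peak in either library, and Ugt2b5 had a peak of 0.207 in replicate 1 only. Ugt3 enzymes use sugar donors other than UDP-glucuronate. Both were open, Ugt3a1 at 1.72 and 1.18 (1.45 ± 0.385), in a region at an internal TSS, centred 6502 bases from the gene start, and Ugt3a2 at 1.44 and 1.08 (1.26 ± 0.251).

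The open sulfotransferases were 4 of the 6 Sult1 genes, whose products act on phenols and amines, and Sult2b1, whose product acts on cholesterol and related sterols. Sult1c2 led with 7.07 and 4.50 (5.79 ± 1.82). Sult1a1, the main phenol sulfotransferase, had 3.18 and 3.09 (3.13 ± 0.0578), Sult1b1 had 3.22 and 2.68 (2.95 ± 0.382), Sult2b1 had 3.20 and 2.27 (2.73 ± 0.659) and Sult1d1, an enzyme of catecholamine metabolism, had 2.17 and 1.43 (1.80 ± 0.524). Sult1a1, Sult1b1 and Sult2b1 overlapped, and Sult1d1 lay below them in both libraries. The regions of Sult1b1 and Sult2b1 lie at internal TSSs, centred 2005 and 25039 bases from the gene start. No peak was found at the oestrogen sulfotransferase gene Sult1e1 or at Sult1c1. The hydroxysteroid sulfotransferase genes Sult2a1 to Sult2a8, and Sult3a1, Sult3a2, Sult4a1, Sult5a1, Sult6b1 and Sult6b2, were also without one.

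Of the 33 members that were not open, 30 had no promoter peak in either library. The exceptions were Gstm3, Ugt1a10 and Ugt2b5. A further file lists the bases with a false discovery rate (FDR) of at most 0.05, and it shares its source with the peaks. At these 30 genes it lists 0 promoter bases in both libraries, and Ugt1a10 was the only member that was not open with listed bases in both. Over all genes that were not open, 2.79% had listed bases in both libraries and 9.70% had a peak in a library. Open members had between 253 and 2380 listed bases.

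Motifs were searched, on either strand, in the 300 bases from 250 before to 50 after each coding TSS. The members had 149 such windows and all coding genes 54081. Paralogs share promoter sequence and windows of 1 gene overlap, so the windows are not independent. A shared footprint is said to touch a match where they overlap by 1 base or more. This can be the edge alone, or a part that came from 1 library only. ARE matches were in 8 members (11.9%), against 20.7% of all genes, and in 12.1% of member windows, against 12.9%. All 8 genes were open: Gsta3, Gstm5, Gstm6, Gstm7, Gstp2, Gstz1, Mgst1 and Ugt3a1. Of all genes with an ARE match 74.0% were open. A shared footprint touched the match in Gstm5, Mgst1 and Ugt3a1, against 30.1% of open genes with a match. The Mgst1 match lies within the stretch chr6:138140461-138140490 on the plus strand. The Gsta3 stretch, at chr1:21240419-21240518 on the plus strand, has the match outside its 2 shared footprints.
Mgst1: gcggggcttgGCACGGTCAggaggcggggt
Gsta3: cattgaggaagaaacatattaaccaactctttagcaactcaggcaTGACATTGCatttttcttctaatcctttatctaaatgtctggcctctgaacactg

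A match to HNF4 (CAAAGTCCA), the nuclear receptor site of liver and proximal tubule, was found in 2 members, Sult1b1 and Ugt1a10, against 0.794% of all genes and 0.444% of all windows. Sult1b1 was open and Ugt1a10 was not, where 68.0% of all genes with a match were open. A shared footprint touched the match in 18.8% of those. In Sult1b1 the match lies 25 to 33 bases after an internal TSS, under a shared footprint. It lies within the stretch chr5:87536178-87536207 on the minus strand.
Sult1b1: gtgagcaggcCAAAGTCCAttcctggtggc

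The AP-1 motif was in 18.1% of member windows against 6.56%. It was in 17 members (25.4%), against 12.0% of all genes, and 11 of the 17 were open, against 56.1%. The share of open genes with a footprint touching the AP-1 match was 8.01% over all genes, and Gstp1 was the only member. TATAAA was in 20.1% of windows against 11.3% and in 19 members against 20.8% of genes. Of the 19, 8 were open, against 49.2%, and none had a footprint touching the match, against 8.89% of all open genes with TATAAA.

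The core site of the aryl hydrocarbon receptor (XRE, searched as GCGTG) was in 20.8% of windows against 37.4% and in 21 members against 48.5% of genes. Of the 21, 15 were open, against 82.9%, and 6 had a footprint touching the match, against 46.8% of open genes with one. The GC box GGGCGG was in 30.9% of windows against 43.3% and in 22 members against 53.7% of genes. Of the 22, 16 were open, against 85.7%, and 12 had a footprint touching it, against 71.3%. CCAAT was in 36.9% of windows against 35.8% and in 27 members against 51.4% of genes. Of the 27, 19 were open, against 65.5%, and 9 had a footprint touching it, against 31.3%. No member window held the nuclear receptor repeat DR1, its short form CAAAGGTCA, the ERR site TCAAGGTCA or the CTCF consensus. These were rare in general, in 0.0148%, 0.396%, 0.401% and 0.316% of all windows.

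**Figure D3:**
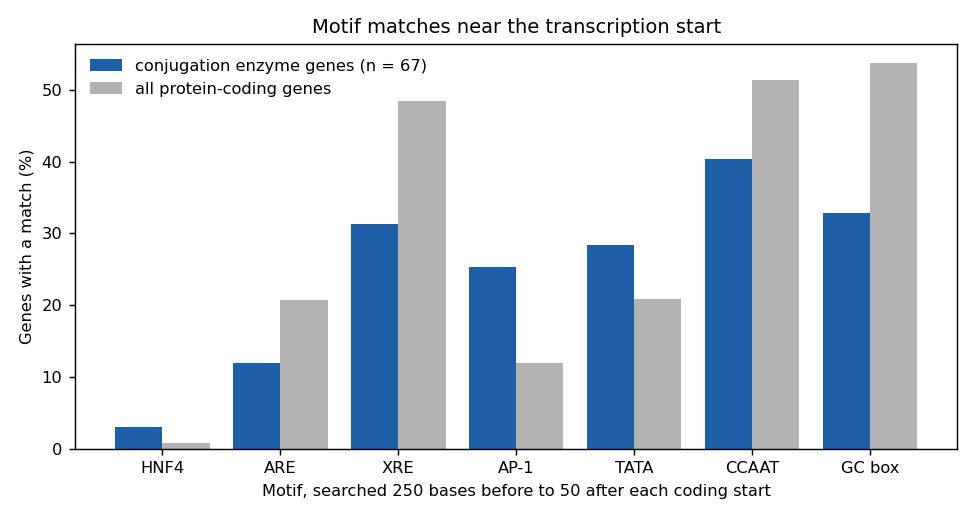
Share of genes with a motif match in the 300 bases around a coding TSS, for the 67 conjugation enzyme genes (blue) and all protein-coding genes (grey); motifs in no member are left out. AP-1 stands at 25.4% against 12.0%, while ARE, XRE, GC box and CCAAT bars are lower in the conjugation enzyme genes. Counted per window instead of per gene, ARE was in 12.1% against 12.9% and CCAAT in 36.9% against 35.8%.

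Footprints were found at most open promoters. Of the 34, 31 held at least 1 shared footprint (91.2%), against 92.4% of all open promoters, with a median of 2.5 against 4. Ugt1a7c, Ugt1a6a and Ugt2b37 had none. They were the 3 weakest open promoters, the highest at 0.651, and the weakest promoter with a footprint, Ugt2b38, was at 0.755. Counted once each, the promoters held 105 shared footprints, of which 74 lay within 100 bases of a TSS. The median width of the 105 was 21 bases, as joined over both libraries.

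CpG-poor promoters made up most of the set. The observed over expected CpG ratio of the promoter window was under 0.35 in 50 of 67 members, against 31.6% of all genes, with a median of 0.220 against 0.619. Of the 50, 19 were open (38%), where 15.6% of all CpG-poor genes were. Of the 17 CpG-rich members, 15 were open (88.2%), against 84.8%. Within each class the median signal of open members was near that of all open genes, at 1.80 against 1.37 in CpG-poor and 5.30 against 5.17 in CpG-rich promoters. All 21 Ugt genes and 18 of 21 Sult genes were CpG-poor, but 10 of 22 Gst genes. Gstm7 and Sult1c2 were the strongest CpG-poor members, with ratios of 0.321 and 0.312, but with the stricter overlap of peaks Gstm7 had a signal of 1.25. The CpG-rich members that were not open were Sult4a1, an orphan enzyme of brain, at 0.743, and Sult2a4 at 0.392.

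Tandem duplicates also share promoter sequence. The share of 32-base words of the promoter window that occur once in the reference genome had a median of 94.3% over members against 99.7% over all genes. It was under 90% in 24 of 67 members, against 17.4% of all genes. Of these 24, 10 were open (41.7%), against 27.2% of all genes under 90%. Of the 43 others, 24 were open (55.8%), against 70.5%. The lowest values were 5.46% for Sult2a1, 9.48% for Sult2a2, 16.2% for Gsta1, 42.6% for Ugt2b38, which was open, and 48.9% for Ugt2b5. Sult2a1 shared 86.2% of its words with Sult2a2. Whether reads from such sequence were kept by the authors is not given in the sources used here, and the part of repeated sequence in these calls was not tested. Other members without a peak had nearly unique windows, among them Sult2a6 with 99.9% and Sult1e1 with 100%. Sult2a7, also without a peak, had 90.7%, below the member median.

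**Figure D4:**
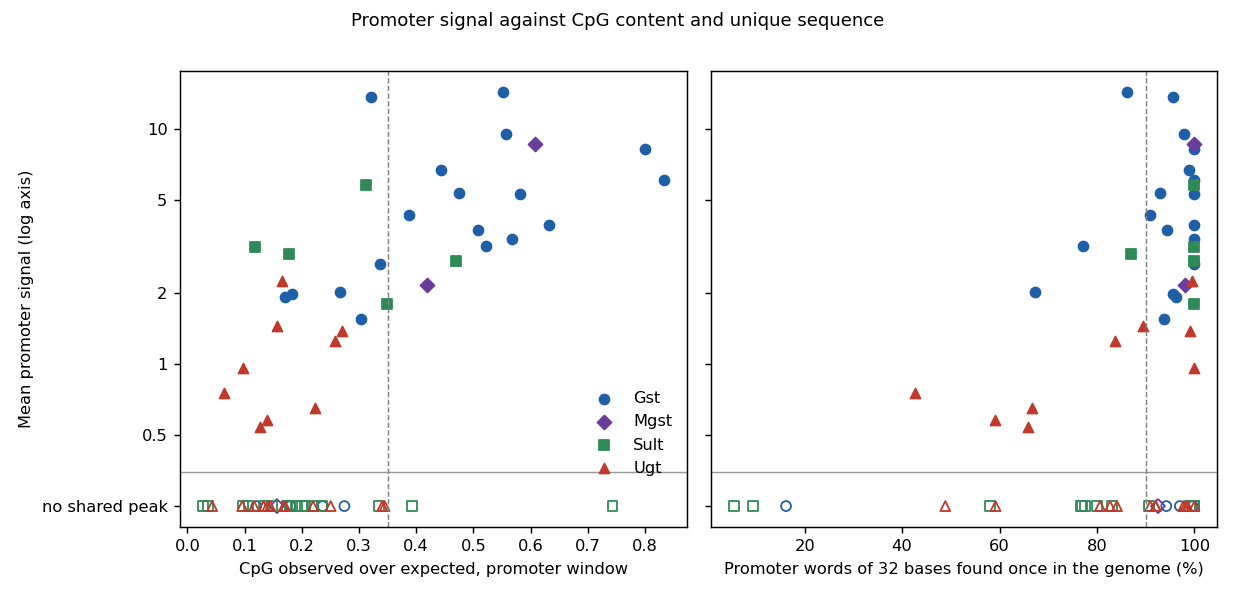
Mean promoter signal (log axis; members without a shared peak as hollow marks on the bottom row) against the CpG ratio (left, dashed line at 0.35) and the share of unique 32-base words (right, dashed line at 90%), by enzyme type. All Ugt genes lie left of the CpG line, and members without a peak range from 5.46% to 100% unique words.

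Outside promoters, shared regions were counted from 10 kb before to 10 kb after each gene. The median was 2 regions for members and 2 for all genes, and 51 of 67 members had at least 1 (76.1%), against 72.4%. Of the 33 members that were not open, 21 had such a region, against 49.0% of all genes that were not open. Neighbouring members count the same regions, so each region was also counted once. This gave 126 regions, with a median signal of 1.18 against 0.918 for all 77375 distal regions. They lay at the 23 loci of the members (members within 200 kb of each other) except the Sult2a locus, which had 0. A shared footprint was present in 98 of the 126 (77.8%), against 63.2%. For 112 of them a member was the nearest coding gene, and 68 lay inside a member's body.

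The strongest distal region lay 6.87 kb before the annotated start of Gsta4, at chr9:78175801-78176000. It had 6.66 in replicate 1 and 7.71 in replicate 2 (7.18 ± 0.747). It was higher in both libraries than the open Gsta4 promoter, which is at an internal TSS, centred 9196 bases after that start. A second region beside the first, 7.26 kb before the annotated start, had 4.45 and 3.94 (4.19 ± 0.363). In Gsta2 a region 1.22 kb before the internal TSS, at chr9:78348281-78348500, had 7.66 and 4.86 (6.26 ± 1.98), again above the promoter in both libraries. Gsta1, with no promoter peak, had a region 0.836 kb before its TSS with 2.79 and 1.73 (2.26 ± 0.750). The 3 genes had 18 distal regions in all over 173.0 kb.

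Gsta2 and Mgst3 had 8 distal regions each. In Mgst3 a region 19.3 kb after the TSS, inside the gene, had 5.33 and 5.08 (5.21 ± 0.181). Another at 23.7 kb had 3.41 and 6.59 (5.001 ± 2.24), but its nearest coding gene was Aldh9a1.

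The members with the most distal regions were Ugt1a10, Ugt1a9, Ugt1a8, Ugt1a7c and Ugt1a6b, with 11 each, because their bodies all run to the shared last exon and take in the same 11 regions. The strongest lay 4.71 kb before Ugt1a2, at chr1:88195781-88196000, with 5.99 and 4.002 (4.998 ± 1.41), above every Ugt1a promoter in both libraries. Another, inside Ugt1a6a and 2.40 kb after an internal TSS of it, had 2.53 and 3.002 (2.77 ± 0.333).

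In the chromosome 5 cluster of Ugt2 and Sult1 genes, 13 members over 701.8 kb had 19 distal regions. The strongest lay inside Sult1d1, 5.86 kb after its TSS, with 5.42 and 2.39 (3.91 ± 2.14), a more than 2-fold difference between the libraries. Ugt2a3, with no promoter peak, had a region 3.52 kb before its TSS with 3.33 and 2.32 (2.82 ± 0.717). The Sult2a genes had 0 distal regions at 8 genes spread over 870.3 kb of chromosome 7, counted within 10 kb of each gene.

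**Figure D5:**
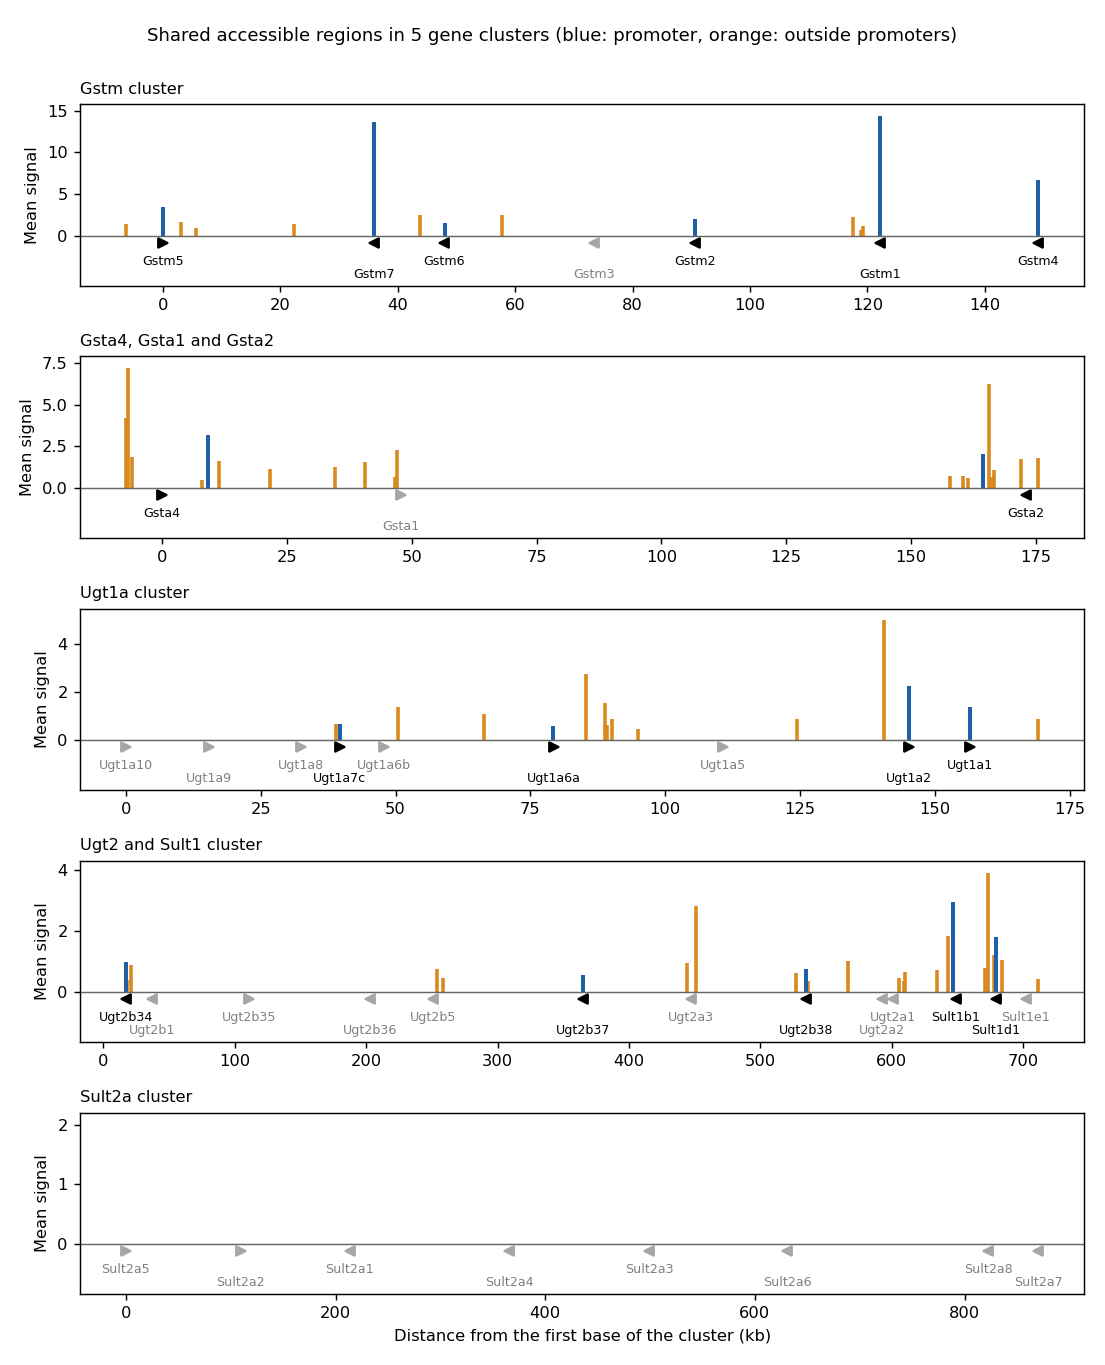
Mean signal of shared promoter regions (blue) and shared regions outside promoters (orange) along 5 gene clusters, in kb from the first base of the cluster; regions are drawn only within 10 kb of a gene body. Arrowheads mark gene starts and direction, black where the promoter was open and grey where it was not; the Sult2a panel is empty.

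Between the libraries, the promoters of open members leaned towards replicate 1. The signal was higher there in 27 of 34 (all 9 Ugt genes, all 5 Sult genes, 13 of 18 Gst genes and neither Mgst gene), against 37.9% of all open promoters. On the log2 scale, replicate 2 over replicate 1 had a median of −0.25 in the member promoters and 0.12 in all open genes. The distal regions of the members did not share this lean, with 62 of 126 higher in replicate 1, against 42010 of all 77375. Their median was 0.03, against −0.07 for all distal regions. Of 6 proximal tubule marker genes (Lrp2, Slc34a1, Slc5a2, Slc22a6, Miox and Aqp1), all were open and 4 were higher in replicate 1, with a median of −0.20 and a range of −0.51 to 0.20. The 2 markers of the thick ascending limb, Umod and Slc12a1, had a median of −0.56, and the 3 of endothelium had 0.09 with a range of −0.86 to 0.63. Slc12a3 of the distal convoluted tubule had −0.59 and Scnn1g of principal cells had 0.50. Plin1 of adipocytes had 0.99, Alb of hepatocytes had −0.64 and Star of the adrenal cortex had −0.22, each the only open marker of its list. The mean signals ran from 1.17 to 5.88 over the proximal tubule markers. The part of cell type make-up in the difference was not tested. The SD of the log2 ratio was 0.38 over members and 0.41 over all open genes.

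The markers of the thick ascending limb (2 of 2), the distal convoluted tubule (Slc12a3) and endothelium (3 of 3) were also open. None of the 4 immune markers and neither podocyte marker was open, and of the 5 hepatocyte markers only Alb was, at 0.373 ± 0.115. Among 3 adrenal markers, Star was open at 0.975 ± 0.106, and of 2 adipocyte markers Plin1 was, at 1.23 ± 0.577. Of the 2 principal cell markers Scnn1g was open and Aqp2 was not.

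Lists of related genes covered supply, processing, transport and control, and also relatives of the enzymes and other conjugating or detoxifying enzymes. Of the genes in these lists 71 of 75 measured were open (94.7%), against 63.0% of all protein-coding genes. Their median signal was 3.50 against 4.78. All 5 genes around UDP-glucuronate were open, led by Ugdh, which makes UDP-glucuronate, at 14.4 and 11.6 (13.0 ± 1.98), and Ugp2, which makes its precursor UDP-glucose, at 8.58 and 8.84 (8.71 ± 0.181). Both lay above every Ugt promoter in each library. Of the sulfate donor and related genes 10 of 10 measured were open, led by the PAPS synthase gene Papss1 at 26.4 and 25.2 (25.8 ± 0.899) and the tyrosylprotein sulfotransferase gene Tpst2 at 19.8 and 22.2 (21.02 ± 1.68). Papss1 exceeded all Sult promoters in both libraries. Sts was not measured here.

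All 7 genes of glutathione supply and reduction were open, with glutathione synthetase (Gss) at 11.2 and 13.3 (12.3 ± 1.54) and thioredoxin reductase (Txnrd1) at 9.24 and 8.53 (8.89 ± 0.505). The 9 mercapturate genes, which act on glutathione conjugates and the mercapturates made from them, were all open, with the aminoacylase genes Acy1 at 18.6 and 13.7 (16.2 ± 3.45) and Acy3 at 9.36 and 11.5 (10.4 ± 1.49) highest. Of 10 relatives of the glutathione transferases 8 were open, led by Eef1g, which encodes an elongation factor subunit with a transferase-like domain, at 18.5 ± 3.82 and the prostaglandin synthase gene Ptges2 at 6.97 ± 1.34. Ltc4s and Gdap1 were not open.

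Other conjugating or detoxifying enzymes were open in 13 of 14 cases, with the thiopurine methyltransferase gene Tpmt at 17.2 ± 0.906 and the epoxide hydrolase gene Ephx1 at 5.96 ± 0.0117, and with the bile acid conjugating gene Baat not open. The 6 efflux and transport genes were all open, led by the organic anion pumps Abcc4 at 6.09 ± 0.371 and Abcc2 at 3.25 ± 0.251. Of 14 regulators 13 were open, led by Nfe2l2, which encodes NRF2, at 21.7 ± 1.75 and Ppara at 10.2 ± 0.483. The exception was Nr1i3, which encodes the receptor CAR of liver.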

How the data were processed

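The authors deposited peaks, footprints and FDR values per library on mm10, without pooling, per the file headers; the sources used here name no aligner or caller. Each peak carries the authors' signal. The FDR values are q-values, listed to 0.05, and the deposited footprint p-value or q-value level is a constant 0.01. All signals were whole multiples of a step (tolerance 0.05 steps); if a step is 1 tag, the libraries held 120.9 and 119.9 M tags. The longer of the 2 peak lists of a library was used (137083 and 125000 peaks). Overlapping peaks (1 base or more) of both libraries were joined into 96735 shared regions, taking the highest signal of each. Overlapping footprints were joined in the same way. Genes came from GENCODE M21, sequence from GRCm38.p6 (1-based coordinates). CpG ratio and uniqueness used whole promoter windows. Scripts, tested on simulated peaks and sequence, used Python 3.11.15, pandas 2.3.3, numpy 2.4.6 and bedtools 2.31.1. Members and lists were chosen with earlier results of these data known. All members are named. Values per library are given for the 3 strongest open promoters of each group, the 10 strongest overall and the 3 members with the most distal regions; the 2 strongest of each pathway list are given. Alternatives were the shorter list, other windows and overlaps, stronger peaks, gene starts alone and leaving out a replicate. No test across samples was possible. A motif and 2 genes of the regulator list are not reported here.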

Additional observations from a re-analysis of the deposited data

How the results depend on the processing

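The number of open members ranged from 30 to 37 over the alternatives (44.8% to 55.2%). The share of all protein-coding genes that were open moved as well, from 56.5% to 67.4%. It was 33 in the shorter peak list (without Ugt1a6a), 37 with windows of 2000 bases (with Gsta1, Sult6b2 and Ugt1a6b, and with signals of 6.26 for Gsta2 and 1.63 for Ugt3a2) and 30 in the stronger 50% of peaks, which dropped Ugt1a6a, Ugt1a7c, Ugt2b37 and Ugt2b38 and left 2 open Ugt1 genes and 1 open Ugt2 gene. With peaks overlapping by 50% of both it was 33 (without Ugt1a2), and Gstm7 had a signal of 1.25. With annotated gene starts alone it was 31 (without Gsta4, Sult1b1 and Ugt3a1), 1 Ugt3 gene was open, and Gsta2 and Sult2b1 had signals of 1.22 and 0.951. Leaving out either replicate gave 35 to 37 open members and a median signal of 2.67 to 2.68. Without replicate 1, 32 open members had a footprint (91.4%, against 95.8% of all open genes). Without replicate 2, 36 had one (97.3%, against 95.5%). Members had a median of 3 distal regions in both cases, against 2 over all genes without replicate 1 and 3 without replicate 2. Mgst3 had 9.66 without replicate 1. The median number of distal regions was 1 in the stronger 50% of peaks, 1 in the gene body alone, 1 with the nearest coding TSS only and 6 with a flank of 50 kb, and the median over all genes was the same in each. Searched over 500 bases on each side of the TSS, ARE was in 52 of 149 member windows (34.9%), against 33.8% of all coding windows. XRE was in 62 (41.6% against 65.3%), AP-1 in 45 (30.2% against 19.3%) and TATAAA in 78 (52.3% against 30.7%). CCAAT was in 110 (73.8% against 69.2%) and the GC box in 55 (36.9% against 59.4%). HNF4 was in 4 (2.68% against 1.56%) and ERR in 2 (1.34% against 1.75%). A longer window holds more sequence. With a CpG ratio of 0.5, 24 of 56 CpG-poor members were open, against 2119 of 8837 CpG-poor genes among all protein-coding genes. With words of 24 bases 31 members were under 90% unique, and the share over all genes is not given here for that length. The cause of the other changes was not tested. No paired analysis was possible because there is 1 group. Peaks below the authors' threshold were not seen, and reads of the CAST/EiJ chromosomes may map less well to the reference.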
